A study of Homo sapiens with 2 samples.

Results

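HNRNPC, HNRNPF, HNRNPH1, HNRNPH2, HNRNPH3, HNRNPK, HNRNPL, HNRNPM, HNRNPR and HNRNPU encode heterogeneous nuclear ribonucleoproteins (hnRNPs) outside the A/B and D families. They were chosen by name, as 10 of the 20263 genes of the deposited table, and every transcript row carrying one of these names was taken, 116 of 95139. The cells were H9, which is a widely used line of human embryonic stem cells, and their messenger RNA was sequenced 48 h after transient transfer of small interfering RNA. In the siHNRNPA1 library the interfering RNA targeted HNRNPA1, and in the sicontrol library it was a control. The comparison is therefore of 1 library with 1 library of a single line, so no difference below has a replicate check and no test was made.

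hnRNPs coat nascent transcripts and steer splice site choice, 3′ end formation, export and stability. Each reads its own RNA element: hnRNP C binds uridine tracts, hnRNP F and the H proteins bind runs of guanosine, hnRNP K binds cytidine-rich RNA and hnRNP L binds CA-rich RNA. Many hnRNP genes limit their own output by splicing part of their transcripts into forms that are degraded by nonsense-mediated decay, a surveillance pathway for early stop codons. hnRNP A1, the protein whose gene was targeted here, often acts as a silencer of exons.

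HNRNPA1 had 179.9 FPKM in the siHNRNPA1 library and 663 FPKM in the sicontrol library, where FPKM is fragments scaled to transcript length and to library size. The siHNRNPA1 library held 28147828 estimated counts and the sicontrol library 26680342. Mitochondrially encoded transcripts took 18.1% of TPM (a level scaled to the same total in each library) in siHNRNPA1 and 28.2% in sicontrol. All 10 pluripotency markers of the list were at 1 FPKM or more in both libraries, with a summed level of 2171 FPKM in siHNRNPA1 and 1952 FPKM in sicontrol. The higher sum came from POU5F1, with 1355 FPKM in siHNRNPA1 and 864 FPKM in sicontrol, whereas SOX2 (-1.10 on the log2 scale) and DPPA4 (-1.54) were more than 2-fold lower in siHNRNPA1 and PRDM14 (1.64) more than 2-fold higher. Summed levels of other cell types' markers were 213 FPKM in siHNRNPA1 and 77.8 FPKM in sicontrol for 6 neural genes, of which 2 in siHNRNPA1 and 3 in sicontrol reached 1 FPKM. They were 10.5 FPKM in siHNRNPA1 and 35.5 FPKM in sicontrol for 4 mesoderm genes, 2.52 FPKM in siHNRNPA1 and 0.424 FPKM in sicontrol for 5 endoderm genes, and 217.5 FPKM in siHNRNPA1 and 264 FPKM in sicontrol for 7 fibroblast genes. The neural sums came mainly from NES and TUBB3 and the fibroblast sums mainly from THY1, while NEUROG2, SOX17, GATA6, COL3A1, DCN and LUM were listed at 0 in both libraries. The mesoderm sums came mainly from KDR, with 8.02 FPKM in siHNRNPA1 and 32.0 FPKM in sicontrol. TBXT, a further mesoderm marker of the list, was not among the genes measured. The part of these markers in the results below was not tested, and in bulk RNA fewer cells of a type and less RNA per cell cannot be told apart.

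Coding segments that separate listed isoforms of 6 of the genes are given first, because several results on splicing turn on whether a transcript carries them. The HNRNPM segment is in both HNRNPM-202 and HNRNPM-201 and separates them from the decay form HNRNPM-214. Capitals mark the segment and lower case its 20 neighbouring bases on either side in the spliced transcript, read 5′ to 3′ in the sense of the messenger RNA from GENCODE release 29 (GRCh38). The HNRNPR exon lies on chr1:23333518-23333631 (minus strand), the HNRNPK exon on chr9:83973902-83973973 (minus), the HNRNPC extension on chr14:21230958-21230996 (minus), the HNRNPH3 extension on chr10:68338643-68338687 (plus), the HNRNPM exon on chr19:8462529-8462581 (plus) and the HNRNPH1 exon on chr5:179616869-179616958 (minus).
HNRNPR-201 exon: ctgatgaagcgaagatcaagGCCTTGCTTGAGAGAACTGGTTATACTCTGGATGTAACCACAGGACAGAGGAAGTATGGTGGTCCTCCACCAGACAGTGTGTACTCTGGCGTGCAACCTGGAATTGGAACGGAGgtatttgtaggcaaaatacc
HNRNPK-201 exon: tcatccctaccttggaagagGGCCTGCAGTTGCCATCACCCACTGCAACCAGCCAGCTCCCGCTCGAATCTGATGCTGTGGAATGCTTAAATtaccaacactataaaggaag
HNRNPC-202 exon extension: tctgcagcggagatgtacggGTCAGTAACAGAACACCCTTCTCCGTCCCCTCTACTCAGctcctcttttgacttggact
HNRNPH3-201 exon extension: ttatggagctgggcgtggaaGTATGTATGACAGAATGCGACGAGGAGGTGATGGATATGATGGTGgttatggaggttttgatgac
HNRNPM-202 exon: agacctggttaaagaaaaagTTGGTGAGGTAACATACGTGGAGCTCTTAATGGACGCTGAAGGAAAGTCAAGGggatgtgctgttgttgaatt
HNRNPH1-201 exon: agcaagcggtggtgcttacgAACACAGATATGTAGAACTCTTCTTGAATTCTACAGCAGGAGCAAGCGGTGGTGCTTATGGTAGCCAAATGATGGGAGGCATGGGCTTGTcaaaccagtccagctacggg
All 6 segments are coding over their whole length. Those of HNRNPR (114 bases), HNRNPH1 (90), HNRNPK (72), HNRNPH3 (45) and HNRNPC (39) are whole numbers of codons, 38, 30, 24, 15 and 13, so that skipping them keeps the reading frame. The HNRNPM exon of 53 bases leaves a remainder of 2, so that skipping it shifts the frame.

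At the level of whole genes, 9 of the 10 were lower in the siHNRNPA1 library and HNRNPM was higher. Of all 11921 genes with a mean of at least 1 FPKM, 6533 were lower and 5388 higher. Folds are log2((siHNRNPA1 + 1)/(sicontrol + 1)) of FPKM summed over a gene's transcripts. HNRNPR (-1.34), HNRNPK (-1.26) and HNRNPH1 (-1.18) lay more than 2-fold below their sicontrol levels, and no gene lay 2-fold above. Among all 11921 genes with a mean of at least 1 FPKM, 21.9% lay 2-fold or more below sicontrol and 12.4% 2-fold or more above it, so 3 of 10 is near the background and is no result about these genes. The median fold of the 10 was -0.48, against -0.13 for all genes. Together they summed to 1340 FPKM in siHNRNPA1 and 1814 FPKM in sicontrol.

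HNRNPR (ENSG00000125944), a relative of SYNCRIP that binds RNA through RNA recognition motifs and an arginine-glycine-rich tail, lies at chr1:23303771-23344336. It had 34.6 FPKM in siHNRNPA1, with a 95% interval of 33.3 to 35.9, and 89.4 FPKM in sicontrol, with one of 87.2 to 91.6. These intervals are exact Poisson ones on the summed counts and cover counting error only, not the division of reads between transcripts. HNRNPK (ENSG00000165119), a poly(C)-binding protein with KH domains encoded at chr9:83968083-83980616, had 149 FPKM in siHNRNPA1 (147 to 152) and 358 FPKM in sicontrol (354 to 363). In siHNRNPA1 they stood at 38.7% (HNRNPR) and 41.7% (HNRNPK) of their sicontrol levels. By estimated counts, 12675 in siHNRNPA1 and 24063 in sicontrol, HNRNPK lay on the 2-fold line. Its log2 ratio of count shares was -1.002, with a 95% interval of -1.033 to -0.971. HNRNPH1 (ENSG00000169045), an H protein encoded at chr5:179614178-179634784, had 82.7 FPKM in siHNRNPA1 (80.3 to 85.2) and 188 FPKM in sicontrol (184 to 193). Its estimated counts differed relatively less, 4476 in siHNRNPA1 and 7012 in sicontrol, a log2 ratio of count shares of -0.72, so that its 2-fold call does not hold on counts.

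HNRNPM (ENSG00000099783, chr19:8444767-8489114), which binds GU-rich RNA and is known for regulating CD44 splicing, was the gene with the higher level in siHNRNPA1. It had 186 FPKM there (183 to 190) and 108 FPKM in sicontrol (105 to 111), a fold of 0.78, which is within 2-fold. Its sign was the same under each of the 8 other settings tried.

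The remaining genes were within 2-fold. HNRNPH2, the X-linked near-copy of HNRNPH1 with HNRNPH2-201 as its only listed transcript, had 15.5 FPKM in siHNRNPA1 and 28.5 FPKM in sicontrol (fold -0.84). HNRNPU, the scaffold attachment factor that ties RNA to chromatin, had 127 FPKM in siHNRNPA1 and 184 FPKM in sicontrol (-0.53). HNRNPF, whose coding sequence lies in a single exon, had 93.8 FPKM in siHNRNPA1 and 127.5 FPKM in sicontrol (-0.44). In both libraries these genes stood above HNRNPH2. HNRNPC, which packages nascent RNA as a tetramer, had 215 FPKM in siHNRNPA1 and 264 FPKM in sicontrol (-0.30). The smallest differences were those of HNRNPH3, the shortest H relative, with 133 FPKM in siHNRNPA1 and 152 FPKM in sicontrol (-0.19), and of HNRNPL, with 302 FPKM in siHNRNPA1 and 314 FPKM in sicontrol (-0.06). On GRCh38, HNRNPC lies at chr14:21209136-21269494, HNRNPF at chr10:43385617-43409166, HNRNPH2 at chrX:101408295-101414133, HNRNPH3 at chr10:68331174-68343191, HNRNPL at chr19:38836388-38852347 and HNRNPU at chr1:244840638-244864560. The sign of HNRNPL turned to 0.10 with the libraries scaled by their median ratio, and that of HNRNPH3 to 0.37 relative to genes of like expression, GC content and length.

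**Figure D1:**
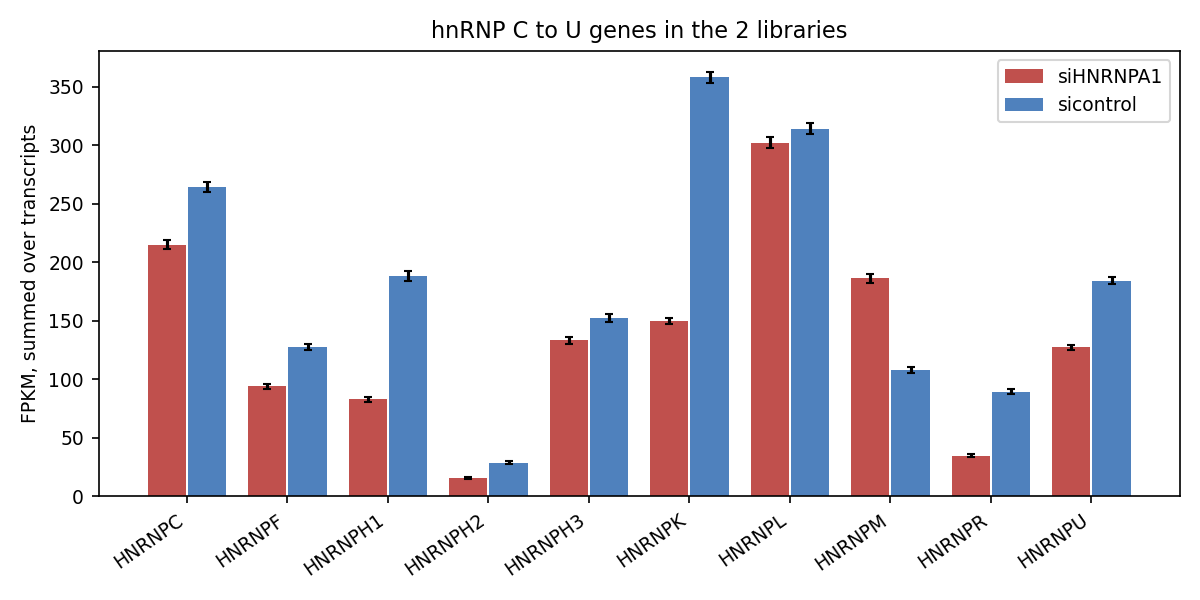
FPKM of each gene, summed over its transcripts, in the siHNRNPA1 library (left bar of each pair) and the sicontrol library (right bar). Error bars are 95% counting intervals. HNRNPK stands at 149 FPKM in siHNRNPA1 and 358 FPKM in sicontrol, and HNRNPM at 186 FPKM in siHNRNPA1 and 108 FPKM in sicontrol.

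The order of the genes by FPKM differed between the libraries. In siHNRNPA1 the order was HNRNPL, HNRNPC, HNRNPM, HNRNPK, HNRNPH3, HNRNPU, HNRNPF, HNRNPH1, HNRNPR and HNRNPH2. In sicontrol it was HNRNPK, HNRNPL, HNRNPC, HNRNPH1, HNRNPU, HNRNPH3, HNRNPF, HNRNPM, HNRNPR and HNRNPH2. HNRNPM thus stood in place 3 in siHNRNPA1 and in place 8 in sicontrol, and HNRNPK in place 4 in siHNRNPA1 and in place 1 in sicontrol. The counting intervals of neighbours in these orders did not overlap except those of HNRNPH1 and HNRNPU in sicontrol.

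Of 30 other hnRNP genes and close relatives listed, 28 were measured, with 3 at least 2-fold lower, 2 higher and a median fold of -0.16. Both counts are below the shares among all genes, 21.9% and 12.4%, and the genes past 2-fold are named only as the values of this list. The lower ones were PTBP3, PTBP2 and TARDBP, at -3.68, -2.61 and -2.11, which bind pyrimidine tracts (the PTB proteins) and UG repeats (TDP-43). The higher ones were RBM14 (2.39) and RBM4 (1.34). SYNCRIP, the paralog of HNRNPR, had 33.1 FPKM in siHNRNPA1 and 54.8 FPKM in sicontrol (-0.71), and HNRNPUL1, a relative of HNRNPU, 142 FPKM in siHNRNPA1 and 207 FPKM in sicontrol (-0.55). RALY, the close relative of HNRNPC, stood at 0.74, on the other side of 0 from HNRNPC.

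In some of these genes the transcripts went different ways. Of the 116 member transcripts 69 had a mean of at least 1 FPKM. Below sicontrol by 2-fold or more were 28 and above it 9, against 23.4% lower and 21.3% higher among all 24624 transcripts of that level. The median fold was -0.62, against 0.02 for all. Transcripts of a gene share its level and its reads, so they are not independent. Lower transcripts of HNRNPR, HNRNPK and HNRNPH1 partly repeat the lower levels of those whole genes. HNRNPC, HNRNPK, HNRNPM and HNRNPU each had transcripts at least 2-fold lower and others at least 2-fold higher. How many of all genes have such opposite transcripts was not counted, so this is no result about these genes.

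**Figure D2:**
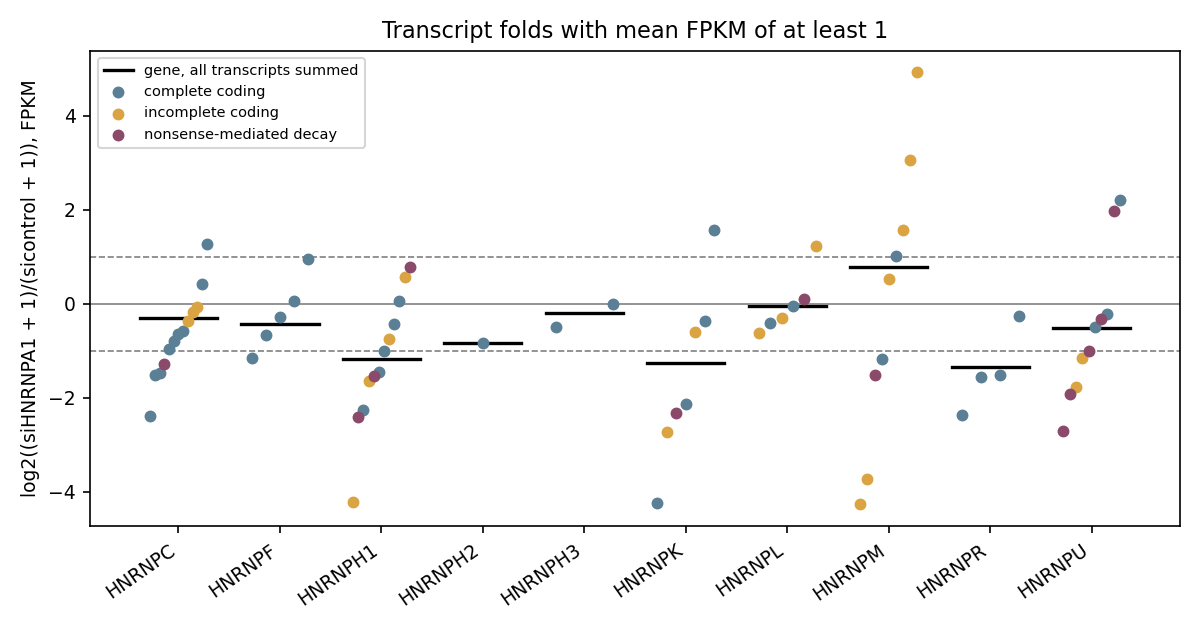
Log2 fold of each transcript with a mean of at least 1 FPKM, siHNRNPA1 over sicontrol, by gene and by annotated class. Black lines are the folds of whole genes and dashed lines mark 2-fold. HNRNPM spans from -4.28 to 4.92, around a gene fold of 0.78, where the lower end is HNRNPM-215, listed at 0 in siHNRNPA1, and is set by the pseudocount, and the 4 HNRNPR transcripts from -2.36 to -0.26.

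A transcript's share is its percentage of the gene's FPKM. Of 115 transcripts in the 9 genes with several transcripts, 19 shares differed by at least 10 percentage points and 6 by at least 20. The corresponding percentages among all 39113 transcripts of genes with at least 5 FPKM in both libraries were 20.5% and 10.7%. At least 1 share differed by 20 points in 5 of the 9 genes (HNRNPH1, HNRNPK, HNRNPM, HNRNPR and HNRNPU), against 40.6% of all such genes. Such differences were common in these libraries and are given below as values of these genes, not as a property peculiar to them.

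In HNRNPR most of the lower level lay in the form without the 114-base exon printed above. HNRNPR-204, which skips it and encodes 595 amino acids, had 9.54 FPKM in the siHNRNPA1 library (8.77 to 10.4) and 53.3 FPKM in the sicontrol library (51.4 to 55.2), a fold of -2.36. HNRNPR-201, which carries it and encodes 633 amino acids, had 23.7 FPKM in siHNRNPA1 (22.7 to 24.8) and 28.6 FPKM in sicontrol (27.4 to 29.8), a fold of -0.26. The share of the longer form was 68.7% in siHNRNPA1 and 32.0% in sicontrol. Over all listed HNRNPR transcripts, forms with the exon made up 71.5% of FPKM in siHNRNPA1 and 39.6% in sicontrol. By estimated counts the values were 79.2% in siHNRNPA1 (exact binomial 95% interval 77.7 to 80.7) and 53.2% in sicontrol (52.0 to 54.4). The minor forms HNRNPR-210 and HNRNPR-202, both with the exon, were lower as well, at -1.53 and -1.57. The values without the exon rest mainly on HNRNPR-204, which differs from HNRNPR-201 at both ends too. HNRNPR-204 has 1788 bases in 9 exons and HNRNPR-201 has 2629 bases in 11 exons.

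In HNRNPK the form without an upstream first exon stayed within 2-fold while most others were lower. HNRNPK-201 had 97.9 FPKM in siHNRNPA1 and 127.8 FPKM in sicontrol (-0.38), and its share was 65.5% in siHNRNPA1 and 35.7% in sicontrol. HNRNPK-202 encodes the same 463 amino acids but starts at a first exon farther upstream and ends at an earlier 3′ end. It had 3.16 FPKM in siHNRNPA1 and 77.2 FPKM in sicontrol (-4.23). HNRNPK-205, from another upstream first exon, had 10.6 FPKM in siHNRNPA1 and 50.2 FPKM in sicontrol (-2.14). HNRNPK-204 was the exception, with 23.2 FPKM in siHNRNPA1 and 7.17 FPKM in sicontrol (1.57). HNRNPK-204 shares the upstream first exon of HNRNPK-202 and the last exon of HNRNPK-205, so the first exon alone does not order these transcripts.

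HNRNPK-206, the listed form without the 72-base exon printed above, had 10.5 FPKM in siHNRNPA1 and 75.9 FPKM in sicontrol (-2.74). Inclusion of that exon was 92.9% in siHNRNPA1 and 78.7% in sicontrol, a difference of 14.2 points. The acceptor choice at the last exon separates proteins of 464 and 463 amino acids. It differed by 3.24 points, with the longer last exon in 25.1% of FPKM in siHNRNPA1 and 21.9% in sicontrol.

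In FPKM most of the HNRNPH1 difference lay in short transcripts annotated with an incomplete coding sequence. HNRNPH1-201, the main transcript with a complete coding sequence, had 42.2 FPKM in siHNRNPA1 (40.7 to 43.7) and 40.6 FPKM in sicontrol (39.1 to 42.2), a fold of 0.05, and the counting intervals overlap. Other complete forms of lower level were at least 2-fold lower in siHNRNPA1. HNRNPH1-203 had 0.593 FPKM in siHNRNPA1 and 6.64 FPKM in sicontrol (-2.26), HNRNPH1-204 had 1.49 FPKM in siHNRNPA1 and 5.79 FPKM in sicontrol (-1.45), and HNRNPH1-216 had 0.792 FPKM in siHNRNPA1 and 2.59 FPKM in sicontrol. HNRNPH1-231, an incomplete model of 832 bases, had 26.7 FPKM in siHNRNPA1 and 86.1 FPKM in sicontrol (-1.65). HNRNPH1-241, of 549 bases, had 0.488 FPKM in siHNRNPA1 (9 estimated counts) and 26.7 FPKM in sicontrol (454 estimated counts), a fold of -4.22. Over all incomplete HNRNPH1 transcripts the level was 30.7 FPKM in siHNRNPA1 and 119 FPKM in sicontrol, and over the 6 complete ones 45.7 FPKM in siHNRNPA1 and 57.0 FPKM in sicontrol. With complete transcripts alone the gene's fold is -0.31, within 2-fold.

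Inclusion of the 90-base HNRNPH1 exon printed above was 62.6% in siHNRNPA1 and 38.1% in sicontrol. By estimated counts it was 80.2% in siHNRNPA1 and 60.5% in sicontrol. The 50-base exon that ends the reading frame of the 449-residue protein of HNRNPH1-203 was in 47.1% of FPKM in siHNRNPA1 and in 72.3% in sicontrol. HNRNPH1-201 lacks it and is annotated with 472 codons. Both differences rest largely on HNRNPH1-231, which lacks the 90-base exon and holds the 50-base one.

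HNRNPM was higher in its main complete form and in some fragments, while other fragments were listed at 0. HNRNPM-202, with 691 codons, had 79.1 FPKM in siHNRNPA1 (77.2 to 81.01) and 38.8 FPKM in sicontrol (37.5 to 40.2), a fold of 1.01. HNRNPM-201, the form of 730 codons that keeps a stretch spliced out of HNRNPM-202, had 2.74 FPKM in siHNRNPA1 and 7.52 FPKM in sicontrol (-1.19). The other complete form, HNRNPM-217, stayed under 1 FPKM in both libraries. HNRNPM-204, an incomplete form that joins the exons around a skipped block of 3, had 44.8 FPKM in siHNRNPA1 and 0.511 FPKM in sicontrol (4.92), from 1593 estimated counts in siHNRNPA1 and 17 in sicontrol. The incomplete forms HNRNPM-208 and HNRNPM-205 were higher too, at 1.57 and 3.06. HNRNPM-215 and HNRNPM-210 were listed at 0 in siHNRNPA1 and at 18.4 and 12.3 FPKM in sicontrol. Against a floor of 3 counts in the siHNRNPA1 library their share of counts was at least 166-fold (HNRNPM-215) and at least 39.7-fold (HNRNPM-210) lower there. A listed 0 can come from how shared reads were divided between transcripts, so these values cover counting error only.

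The frameshifting skip of the 53-base HNRNPM exon printed above was less frequent in siHNRNPA1. HNRNPM-214, which skips it and is annotated for nonsense-mediated decay, had 4.34 FPKM in siHNRNPA1 (3.89 to 4.83) and 14.3 FPKM in sicontrol (13.4 to 15.2), a fold of -1.52. Inclusion was 96.7% in siHNRNPA1 and 81.9% in sicontrol by FPKM. By estimated counts it was 96.2% in siHNRNPA1 (95.7 to 96.5) and 79.8% in sicontrol (78.7 to 80.9).

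HNRNPU had many listed forms, 19, of which 9 are annotated for nonsense-mediated decay. HNRNPU-226, with 825 codons, had 17.9 FPKM in siHNRNPA1 and 25.6 FPKM in sicontrol (-0.49), with a share of 14.1% in siHNRNPA1 and 13.9% in sicontrol. HNRNPU-216, which starts within the gene and is annotated with 547 codons, had 30.6 FPKM in siHNRNPA1 and 5.82 FPKM in sicontrol (2.21). The decay form HNRNPU-222 was also higher, with 24.1 FPKM in siHNRNPA1 and 5.40 FPKM in sicontrol (1.97). Lower forms were HNRNPU-210 (-1.16), HNRNPU-214 (-1.77), HNRNPU-208 (-1.92) and HNRNPU-224 (-2.71). Summed over complete forms HNRNPU had 51.7 FPKM in siHNRNPA1 and 35.8 FPKM in sicontrol, a fold of 0.52, so that its sign depends on which transcripts are summed. The higher complete sum came from HNRNPU-216, the form that starts within the gene, whereas HNRNPU-226, with the most codons, was lower.

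An early HNRNPU exon has 3 alternative donor sites. The form using the middle site, HNRNPU-214, set against the forms with an exon end 5 bases shorter, made up 19.5% of FPKM in siHNRNPA1 and 54.2% in sicontrol. The longest and the shortest site, set against each other, differed by 0.193 points in FPKM. This near-equality did not hold by estimated counts, where forms using the longest site made up 67.8% in siHNRNPA1 and 81.01% in sicontrol. HNRNPU-216 alone uses an acceptor 6 bases downstream, and the longer exon had 73.4% of FPKM in siHNRNPA1 and 96.2% in sicontrol.

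HNRNPC, HNRNPF, HNRNPH3 and HNRNPL shifted less between isoforms, with no share differing by 20 points. The C1 and C2 proteins of HNRNPC differ by the 13 codons printed above. Forms with them had 54.8 FPKM in siHNRNPA1 and 44.5 FPKM in sicontrol, and forms without them 156 FPKM in siHNRNPA1 and 212 FPKM in sicontrol. The C2 type thus made up 25.98% in siHNRNPA1 and 17.4% in sicontrol, a difference of 8.60 points. HNRNPC-202, a C2 form, had 46.2 FPKM in siHNRNPA1 and 18.7 FPKM in sicontrol (1.26), while HNRNPC-219, also C2, had 6.92 FPKM in siHNRNPA1 and 21.1 FPKM in sicontrol (-1.48). The C1 forms HNRNPC-227, HNRNPC-222, HNRNPC-201 and HNRNPC-205 stood at -0.80, 0.41, -0.59 and -2.40. HNRNPC-202 alone carries a noncoding internal exon of 168 bases. Against forms that skip it, this exon was in 28.8% of FPKM in siHNRNPA1 and 11.3% in sicontrol. Those percentages leave out HNRNPC-203 and HNRNPC-227, which have an exon ending at the same donor. Forms using that donor, set against forms using one 710 bases upstream, made up 53.2% in siHNRNPA1 and 52.3% in sicontrol.

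HNRNPH3-201, with the 45-base extension, had 90.2 FPKM in siHNRNPA1 and 91.1 FPKM in sicontrol, and the form without it, HNRNPH3-202, 43.1 FPKM in siHNRNPA1 and 61.2 FPKM in sicontrol (-0.50). Inclusion was 67.7% in siHNRNPA1 and 59.8% in sicontrol. The 5 complete HNRNPF transcripts encode the same 415 amino acids, and those named here differ in their first exons. HNRNPF-201 also ends at an earlier 3′ end than the others named. HNRNPF-201 had 51.7 FPKM in siHNRNPA1 and 63.0 FPKM in sicontrol (-0.28), and HNRNPF-204 stood at -0.68. HNRNPF-203 had 12.0 FPKM in siHNRNPA1 and 28.2 FPKM in sicontrol (-1.16), and HNRNPF-202 had 9.52 FPKM in siHNRNPA1 and 4.44 FPKM in sicontrol (0.95). In HNRNPL the leading form HNRNPL-210, of 456 codons, held 87.5% of FPKM in siHNRNPA1 and 87.0% in sicontrol. The form of 589 codons, HNRNPL-201, held 7.33% in siHNRNPA1 and 9.50% in sicontrol.

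**Figure D3:**
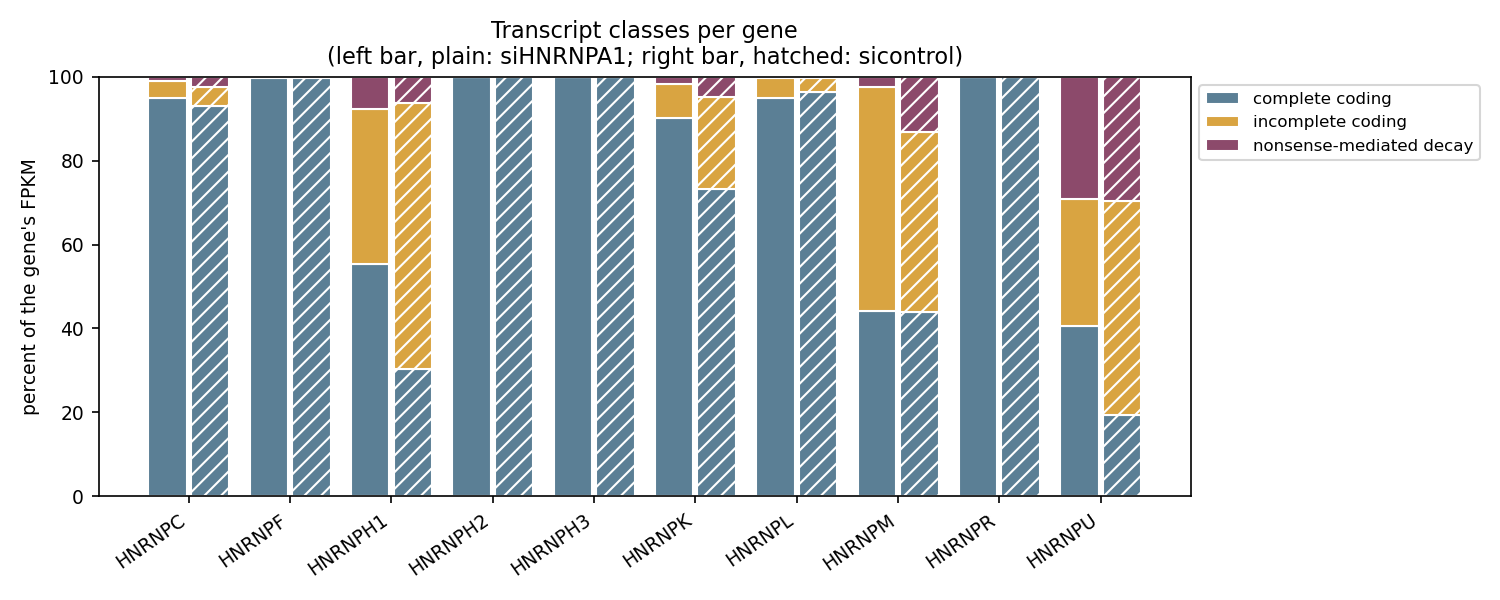
Share of each gene's FPKM in transcripts annotated with a complete coding sequence, with an incomplete one, or for nonsense-mediated decay, in the siHNRNPA1 library (left, plain) and the sicontrol library (right, hatched). The complete share of HNRNPH1 is 55.3% in siHNRNPA1 and 30.3% in sicontrol, and that of HNRNPU 40.7% in siHNRNPA1 and 19.4% in sicontrol. The HNRNPU share includes HNRNPU-216, which starts within the gene and holds 24.1% in siHNRNPA1 and 3.16% in sicontrol.

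Summed over the 10 genes, transcripts annotated for nonsense-mediated decay had 53.6 FPKM in siHNRNPA1 and 105 FPKM in sicontrol, or 3.998% of the total in siHNRNPA1 and 5.80% in sicontrol. Of the 12 such transcripts with a mean of at least 1 FPKM, 8 were at least 2-fold lower and 1 was higher. The shares among all 2500 decay transcripts of that level were 21% below by 2-fold or more and 26.4% above. The 8 are not independent, because HNRNPU and HNRNPH1 each gave more than 1 of them. HNRNPH1 and HNRNPK were also 2-fold lower as whole genes, and HNRNPU-213 lay at the threshold, with a fold of -1.002. The share of these forms was 2.33% in siHNRNPA1 and 13.2% in sicontrol for HNRNPM, 1.77% in siHNRNPA1 and 4.84% in sicontrol for HNRNPK, and 0.950% in siHNRNPA1 and 2.43% in sicontrol for HNRNPC. It was 29.2% in siHNRNPA1 and 29.6% in sicontrol for HNRNPU, 7.58% in siHNRNPA1 and 6.23% in sicontrol for HNRNPH1, and 0.355% in siHNRNPA1 and 0.298% in sicontrol for HNRNPL. Thus 3 of the 6 genes had a lower share by more than 1 point, HNRNPH1 had a higher one by 1.35 points, and HNRNPU and HNRNPL differed by less than 1 point. Among all 2861 genes with a decay transcript and at least 5 FPKM in both libraries, this share was lower by more than 1 point in 40.9% and higher in 31%, so 3 of 6 is near the background. It was lower by 5 points in 23.2% of these genes and higher by as much in 18.7%, and of the 6 genes HNRNPM alone differed by 5 points, in the lower direction. The decay forms of HNRNPH1 summed to 6.27 FPKM in siHNRNPA1 and 11.7 FPKM in sicontrol (-0.81), a lower level at a higher share of a lower total. HNRNPH1-219 had 0.197 FPKM in siHNRNPA1 and 5.37 FPKM in sicontrol (-2.41), and HNRNPH1-211 had 0.161 FPKM in siHNRNPA1 and 2.37 FPKM in sicontrol (-1.54). HNRNPH1-218, which skips a 139-base exon, had 5.57 FPKM in siHNRNPA1 and 2.84 FPKM in sicontrol (0.78).

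Annotated exons and splice sites gave 39 choices with at least 5 informative FPKM in both libraries, in 8 of the genes. Inclusion was at least 20 points higher in siHNRNPA1 for 6 of them and at least 20 points lower for 5, in HNRNPH1, HNRNPM, HNRNPR and HNRNPU. In the whole data set 23.4% of 10833 choices differed by that much, near the 11 of 39 seen here. Choices in a gene share transcripts and are not independent: those of HNRNPM past 20 points all rest on HNRNPM-204, HNRNPM-210 or HNRNPM-215. By estimated counts 4 of the 39 were past 20 points, against 19.9% of all choices, and 3 of the 11 were past it by both measures, in HNRNPH1, HNRNPR and HNRNPU, and none had the opposite sign.

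**Figure D4:**
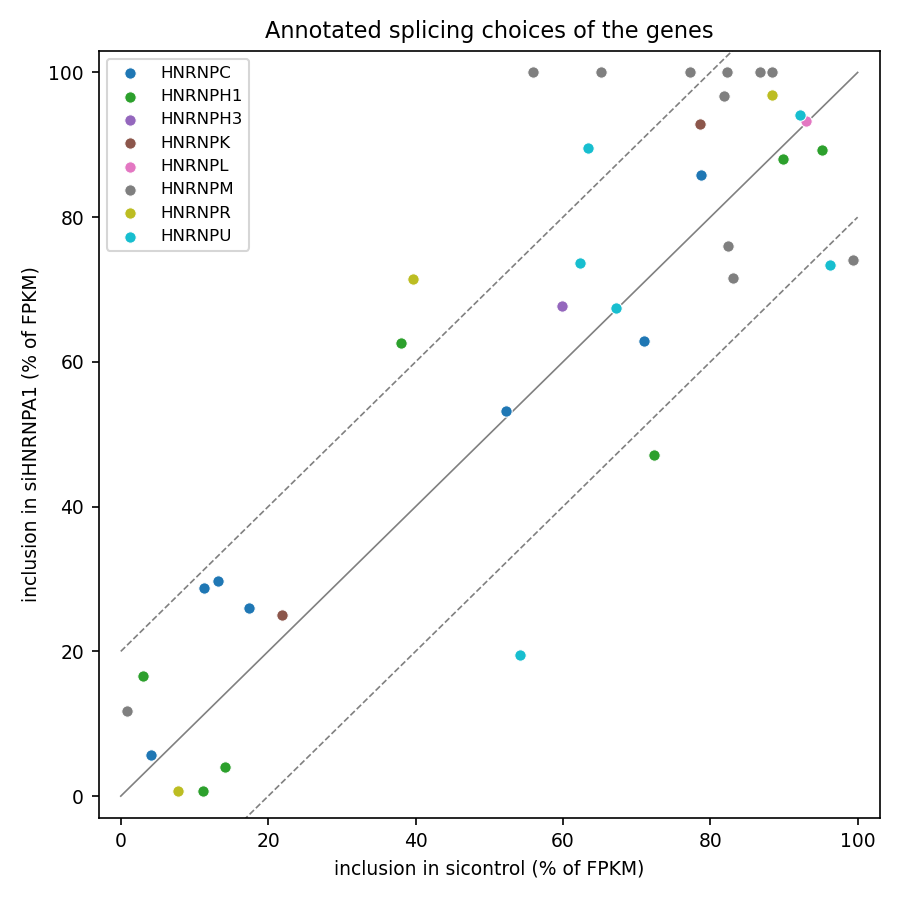
Inclusion of each of the 39 annotated splicing choices, as a percentage of informative FPKM, in the siHNRNPA1 library (vertical axis) against the sicontrol library (horizontal axis). The solid line marks equal inclusion and the dashed lines a difference of 20 points. The HNRNPR exon lies above the upper dashed line, at 71.5% in siHNRNPA1 and 39.6% in sicontrol.

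Some reads of these genes cannot be assigned with certainty. The readthrough gene RPL36A-HNRNPH2 overlaps HNRNPH2 on the same strand and had 49.3 FPKM in siHNRNPA1 and 6.97 FPKM in sicontrol (fold 2.66), opposite in sign to HNRNPH2, while RPL36A had 840 FPKM in siHNRNPA1 and 562 FPKM in sicontrol (0.58). AC008982.1 overlaps HNRNPL on the same strand and had 0.551 FPKM in siHNRNPA1 and 0.620 FPKM in sicontrol. HNRNPU overlaps COX20 on the other strand, which had 11.9 FPKM in siHNRNPA1 and 5.45 FPKM in sicontrol, and HNRNPH3 overlaps RUFY2 and PBLD, both under 2 FPKM in each library. Whether the counting used strand is not given in the sources used here. GENCODE names 9 pseudogenes of HNRNPC, 5 of HNRNPK, 3 of HNRNPH1 and at most 2 of each of the others. Of 189 annotated transcripts of the 10 genes 73 had no listed values, 47 of them retained-intron forms, and so could not be analysed.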

How the data were processed

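Per the file headers, each transcript has a count, a TPM and an FPKM in each library. The authors deposited whole-number counts, here taken as estimated counts because transcripts of a gene share reads. TPM as deposited totals 1000000 per library. Levels here are the deposited FPKM. Neither aligner nor quantifier nor annotation is named (not given in the sources used here). Mouse builds, GRCm38 and mm10, appear in the submitters' processing notes, yet all 116 member transcripts have the position of GENCODE release 29 (GRCh38), from which names, classes, exons and sequences were taken. A further 6 columns of per-sample values match neither library and were not used.

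Transcripts were summed per gene. Genes and transcripts with a mean of at least 1 FPKM were kept, with a pseudocount of 1 FPKM. A fold of 2 and share differences of 10 and 20 points were counted, without tests. A complete coding sequence is one without GENCODE's tag for a missing start or end. Inclusion of an exon or splice site is the FPKM of listed transcripts that carry it over that of transcripts that carry or skip it, for choices whose minor form reached 5% in either library. The splicing choices and transcript classes were added after transcript values had been seen. Counting intervals are 95%, exact Poisson for levels and Clopper-Pearson for shares, and cover counting error only. The scripts that count 2-fold differences and compute inclusion were tested on simulated data with known answers; this checks the arithmetic, not the differences between the libraries. Python 3.11.15, pandas 2.3.3, numpy 2.4.6 and scipy 1.17.1 were used. The members and lists were chosen with earlier results of these data known. All 10 genes are named, with the transcripts holding at least 5% of a gene's FPKM, those moving by 10 points and those with the 10 largest folds. Other hnRNP genes were named where past 2-fold, and SYNCRIP, HNRNPUL1 and RALY were named after their values were seen.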

Additional observations from a re-analysis of the deposited data

How the results depend on the processing

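HNRNPR was at least 2-fold lower under all settings tried, from -1.68 to -1.19. HNRNPK was within 2-fold relative to the 100 genes closest to it in level, GC content and length (-0.84) and with complete coding transcripts alone (-0.95). By library-scaled counts HNRNPK lay on the 2-fold line (-1.0005). HNRNPH1 was within 2-fold by library-scaled counts (-0.72) and with complete transcripts alone (-0.31), and HNRNPH2 was past 2-fold on TPM (-1.01) and without mitochondrial genes (-1.17). The median fold of the 10 genes, -0.48 as reported, was -0.64 on TPM, -0.33 after median ratio scaling, -0.82 without mitochondrial genes, -0.41 by library-scaled counts, -0.57 relative to the nearest genes and -0.29 over complete transcripts. These scalings move the median of all genes, to -0.28 on TPM, -0.42 without mitochondrial genes and close to 0 by median ratio. The number of genes at least 2-fold lower was 1 over complete transcripts, against 21.1% of all genes, and from 2 to 4 under the planned settings. Among all genes the share 2-fold lower was 7.94% with a pseudocount of 5 FPKM, where 3 of the 10 were lower, and 29.6% without mitochondrial genes, where 4 were. Lower transcripts numbered 17 of 69 with a pseudocount of 5 FPKM (7.84% of all transcripts) and 18 of 43 with a mean of at least 5 FPKM (19.9% of all), and 4 splicing choices passed 20 points by counts, where transcript length is not taken into account. The cause of these differences was not tested. The settings with complete transcripts and with counts for splicing choices were chosen after seeing the data. Short incomplete transcripts gain weight in FPKM, and 1 library per condition limits every value. No paired analysis was possible because each condition has 1 library.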
